A study of Mus musculus with 3 samples.

Results

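The AP-1 family examined here comprises 9 genes, Fos, Fosb, Fosl1, Fosl2, Jun, Junb, Jund, Atf3 and Maff, chosen by gene symbol among the 12393 genes that the array's annotation names. They were read by 11 of 20380 single-gene probe sets, 2 each for Fosl1 and Jun and 1 for each of the others. The RNA came from RAW264.7, a mouse macrophage line obtained from a tumour induced by Abelson murine leukaemia virus, at 0, 2 and 12 h of lipopolysaccharide (LPS), a cell wall component of Gram-negative bacteria that signals through Toll-like receptor 4. There was 1 array per time, the dose of LPS is not given in the sources used here, and the later times have no untreated array of their own. A difference from 0 h can thus come from LPS or from the hours in culture, which cannot be told apart, and no replicate spread and no p-value can be given for any value below. As one transformed line, the cells stand for a single source.

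AP-1 is a dimer of basic leucine zipper (bZIP) proteins. Fos proteins cannot pair with each other and bind DNA with a Jun partner, while Jun proteins also pair among themselves. Fos, Jun, Junb and Atf3 belong to the immediate early genes, which are transcribed within minutes of a stimulus from factors already in the cell, and whose mRNAs are mostly short-lived. In macrophages, Toll-like receptors reach these genes through the MAP kinases ERK, JNK and p38. JunB is often a weaker activator than c-Jun on AP-1 sites, ATF3 can repress inflammatory genes, and MafF, a small Maf protein, lacks a transactivation domain and binds related sites as a homodimer or with CNC partners.

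Promoter sequences are shown for the 4 members whose signals differed at least 2-fold between the 2 h and the 0 h array, Fos and Jun on the low side and Junb and Maff on the high side. Each window runs 5′ to 3′ on the gene's strand from 250 bases before to 50 bases after a RefSeq transcript start in assembly GRCm38.p6. Capitals mark matches to the motifs searched: the AP-1 site TGANTCA, the cAMP response element (CRE) TGACGTCA, its core TGACGT, the variant TGACATCA, the CArG box that serum response factor binds, and the TATA box TATAAA. Both strands were read, and every CRE match also holds the core. Fos lies on the plus strand at chr12:85473640-85473939, Jun on the minus strand at chr4:95052173-95052472, Junb on the minus strand at chr8:84978699-84978998, and the Maff window, the one of its 3 that holds a CRE, on the plus strand at chr15:79347270-79347569.
Fos: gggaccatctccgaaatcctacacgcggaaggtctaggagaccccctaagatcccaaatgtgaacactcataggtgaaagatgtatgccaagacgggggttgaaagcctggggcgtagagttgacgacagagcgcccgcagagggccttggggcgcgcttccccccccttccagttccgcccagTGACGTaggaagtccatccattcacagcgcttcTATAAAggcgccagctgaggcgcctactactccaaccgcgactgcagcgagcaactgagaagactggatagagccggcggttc
Jun: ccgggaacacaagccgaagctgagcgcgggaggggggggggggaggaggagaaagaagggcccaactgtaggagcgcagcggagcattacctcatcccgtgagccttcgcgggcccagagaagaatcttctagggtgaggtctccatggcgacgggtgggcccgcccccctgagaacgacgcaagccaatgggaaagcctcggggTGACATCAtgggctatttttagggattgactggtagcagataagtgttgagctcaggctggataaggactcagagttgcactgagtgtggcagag
Junb: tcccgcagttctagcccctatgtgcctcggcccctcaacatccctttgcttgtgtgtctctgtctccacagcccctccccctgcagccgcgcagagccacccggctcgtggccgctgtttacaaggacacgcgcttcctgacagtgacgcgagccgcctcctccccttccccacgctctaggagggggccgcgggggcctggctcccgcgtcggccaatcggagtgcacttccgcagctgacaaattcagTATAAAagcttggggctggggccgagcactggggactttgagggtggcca
Maff: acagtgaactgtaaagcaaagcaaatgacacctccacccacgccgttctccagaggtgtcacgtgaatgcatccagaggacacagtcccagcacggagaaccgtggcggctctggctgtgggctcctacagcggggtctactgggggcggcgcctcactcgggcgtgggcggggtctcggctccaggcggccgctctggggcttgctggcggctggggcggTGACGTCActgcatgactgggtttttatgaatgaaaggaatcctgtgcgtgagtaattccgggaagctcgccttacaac

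The Fos window held the CRE core from base -66 to -61 and a TATA box from -33 to -28. Jun held the variant TGACATCA from -45 to -38, and Maff a complete CRE from -29 to -22. In Junb the only match was TATAAA at bases 1 to 6, directly at the annotated start. The table held 10 windows for 8 of the 9 members, and none was used for Fosl1. In the windows of Fosb, Fosl2 and Jund none of the motifs was matched, and Atf3 held the CRE core on the minus strand from -8 to -3. Among 32841 mouse promoter windows of the same length, the core TGACGT occurred in 7.52%, against 3 of the members' 10 windows. The complete CRE occurred in 1.79%, against 1 of the 10, TGACATCA in 3.62%, against 2, TATAAA in 13.6%, against 2, TGANTCA in 7.81% and the CArG box in 1.63%. The motifs were chosen after the promoter sequences had been seen, so these counts are no test of enrichment. Neither TGANTCA nor the CArG box was matched in any member's window. Sequence outside the windows was not searched, so a promoter without a match can still hold the motif further upstream. Whether Fos has a CArG box there was not tested. A further Maff window held TGACATCA from -45 to -38, the positions it has in Jun. None of the motifs searched was matched in both Fos and Jun, or in both Junb and Maff. Across members that differed in direction at 2 h, Jun and Maff both held TGACATCA, Fos and Maff TGACGT, and Fos and Junb TATAAA.

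Signals are linear probe set intensities scaled to one trimmed mean per array. The 40th percentile of all signals, 34.96, served as a floor: lower values were raised to that level ahead of the log2 step. Where 1 of the 2 arrays compared is below the floor, the fold is a bound, written "at least", and where both are, none is given. A gene counts as higher or lower from a 2-fold difference. The only error these arrays hold is how far probe sets of the same gene disagree. The SD of their log2 difference was 0.32 at 2 h against 0 h, 0.34 at 12 h against 0 h and 0.31 at 12 h against 2 h, over 2684 to 2730 genes. It leaves out differences between cultures. Of 12 macrophage markers, 11 were above the floor at every time, among them Lyz2, Cd14, Csf1r and Cd68, and their summed signal was 23437 at 0 h, 23735 at 2 h and 24194 at 12 h, most of it from a few bright genes. Of the 11, none was 2-fold apart at 2 h, where Spi1 was 1.99-fold higher, and Itgam and Adgre1 were 2.27-fold and 2.12-fold higher at 12 h than at 0 h. The T cell markers Cd3d, Cd3e, Cd3g, Cd8a and Cd4 were under the floor on all 3 arrays. B cell, fibroblast, epithelial and endothelial lists had at most 1 marker each above it, and the neutrophil list 2 at 0 h, 1 at 2 h and 3 at 12 h.

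After 2 h of LPS the family divided. Junb was 4.26-fold and Maff at least 2.53-fold higher than at 0 h, while Fos and Jun were 3.20-fold and 2.84-fold lower, and Jund, Atf3, Fosl1 and Fosl2 were between 1.70-fold and 1.99-fold higher. The 2 genes called higher were among 8 measured members, and among all 8422 genes measured 2.09% were called higher. The 2 called lower stood beside 1.69% of all genes. Maff was measured only through the 2 h array, where it was high, so its direction was fixed. Under a floor at the 60th percentile Junb alone was called higher. By 12 h only Fosl1, of the 7 members then measured, was at least 2-fold from its 0 h signal. This held by its brighter probe set, while the dimmer was 1.17-fold higher. In RNA from whole cultures, fewer cells expressing a gene and less of its mRNA per cell cannot be told apart.

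**Figure D1:**
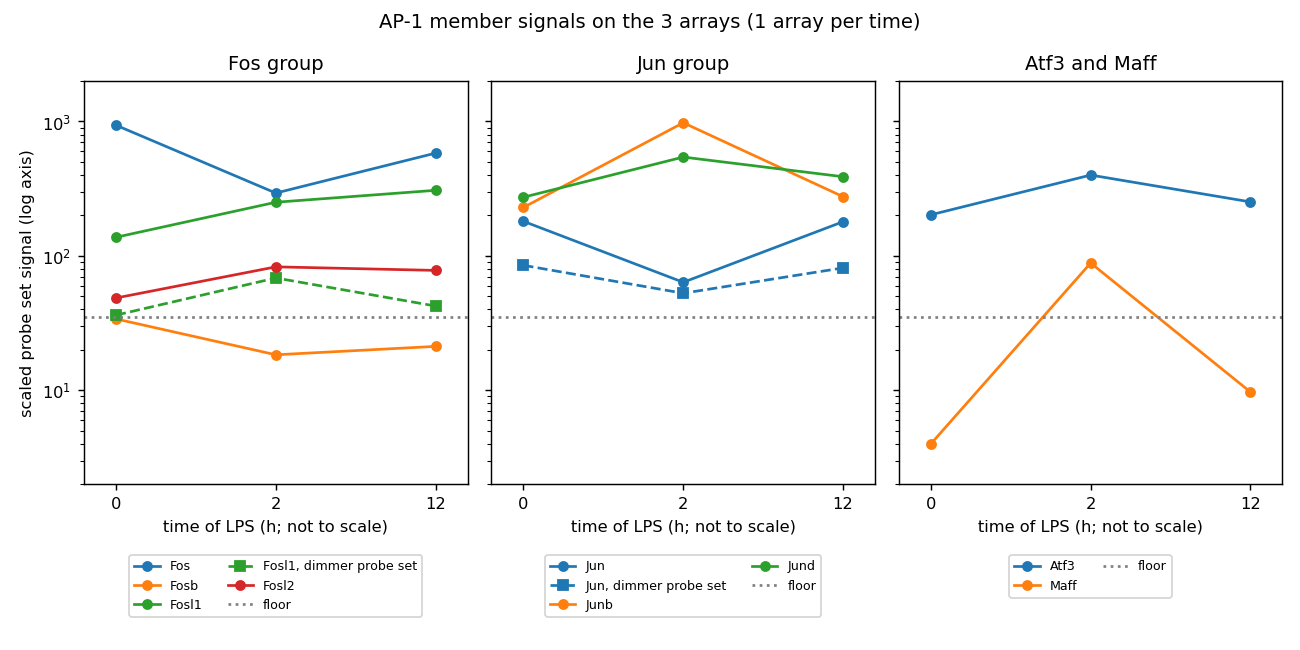
Scaled probe set signal (log axis) of each AP-1 member on the arrays at 0, 2 and 12 h of LPS, 1 array per time, in 3 panels for the Fos group, the Jun group, and Atf3 with Maff; squares with broken lines are the dimmer probe sets of Fosl1 and Jun and the dotted line is the floor of 34.96. Fos and both Jun probe sets dip at 2 h, Junb, Jund, Atf3 and Maff peak there, and Fosb lies under the floor throughout.

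Within the Fos group, Fos, which encodes c-Fos, had signals of 938 at 0 h, 294 at 2 h and 582 at 12 h. It was highest before LPS and lowest at 2 h. The log2 difference was -1.68 at 2 h against 0 h, and only 10 of the 8422 measured genes had a lower one. At 12 h Fos was 1.98-fold higher than at 2 h, just short of the 2-fold that counts, and 1.61-fold lower than at 0 h. Under every alternative of scaling, floor and probe set choice, its log2 difference at 2 h lay between -1.70 and -1.53.

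Fosl1 encodes Fra-1, a Fos protein without the C-terminal transactivation domain of c-Fos. The brighter probe set read 138 at 0 h, 251 at 2 h and 308 at 12 h. This was the one member reading that was highest at 12 h, where it stood 2.23-fold above 0 h. The dimmer probe set had 36.3, 68.6 and 42.4. Both probe sets were higher at 2 h than at 0 h by similar amounts, with log2 differences of 0.87 and 0.92, but at 12 h they parted, with 1.16 for the brighter and 0.22 for the dimmer. The dimmer set was 1.62-fold lower at 12 h than at 2 h while the brighter was 1.23-fold higher, so the later course of Fosl1 was not settled by these arrays. By the median over the 2 probe sets the log2 difference at 12 h against 0 h was 0.69, and no member was then at least 2-fold higher.

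Fosl2, which encodes Fra-2, had signals of 48.7, 82.9 and 78.0 at 0, 2 and 12 h. The signal was higher at both LPS times, by 1.70-fold at 2 h and 1.60-fold at 12 h, and 2 h and 12 h were 1.06-fold apart. Fosb, whose product is the fourth Fos protein, had 34.0, 18.4 and 21.2, under the floor on every array, so no fold is given for it. Whether its probe set detects Fosb mRNA in these cells was not tested.

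Jun, which encodes c-Jun, had signals of 181, 63.7 and 179.7 at 0, 2 and 12 h by its brighter probe set, and 85.1, 52.8 and 81.4 by the dimmer. Both probe sets were lowest at 2 h and both had nearly the same signal at 12 h as at 0 h. The size of the dip differed between them: at 2 h the log2 difference from 0 h was -1.51 by the brighter set and -0.69, or 1.61-fold lower, by the dimmer. The median over the 2 sets was -1.10. At 12 h Jun was 2.82-fold above 2 h by the brighter set and 1.54-fold by the dimmer, and against 0 h the log2 differences were -0.01 and -0.06.

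Junb had signals of 229.6, 979 and 276 at 0, 2 and 12 h. The 2 h array stood apart from the other two, which differed 1.20-fold. Its log2 difference at 2 h against 0 h was 2.09, which ranked 53 from the highest among 8422 measured genes, and at 12 h against 2 h it was -1.83, with 30 genes lower. Across the alternatives the 2 h difference lay between 2.02 and 2.24.

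Jund, often the most steadily transcribed Jun gene, had signals of 273, 544 and 388 at 0, 2 and 12 h. It followed the order of Junb with a smaller range, at 1.99-fold higher at 2 h and 1.42-fold higher at 12 h than at 0 h. A signal set against another on the same array is free of the array's scaling. Measured so, Junb relative to Jun shifted upward 12.1-fold between 0 h and 2 h by the brighter Jun probe set and 6.88-fold by the dimmer. Relative to Fos the shift of Junb was 13.6-fold. By 12 h the ratio of Junb to Jun was within 1.21-fold of that at 0 h by the brighter Jun set and 1.26-fold by the dimmer, whereas Junb relative to Fos was still 1.94-fold higher. Jund relative to Jun shifted by 5.65-fold at 2 h by the brighter set and 3.21-fold by the dimmer, and at 12 h by 1.43-fold and 1.49-fold.

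Atf3 encodes a bZIP factor that stress and Toll-like receptor signals induce. Its signals were 202, 399.5 and 252 at 0, 2 and 12 h, highest at 2 h. The difference at 2 h was 1.97-fold and so just under 2-fold, and at 12 h it was 1.25-fold. Maff had signals of 4.0, 88.5 and 9.72 and was above the floor on the 2 h array alone. Since it entered the count only through the array where it was high, its direction there was fixed once it was measured at all. It was at least 2.53-fold higher at 2 h than at 0 h and at least 2.53-fold lower at 12 h than at 2 h, and no fold is given between 12 h and 0 h.

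**Figure D2:**
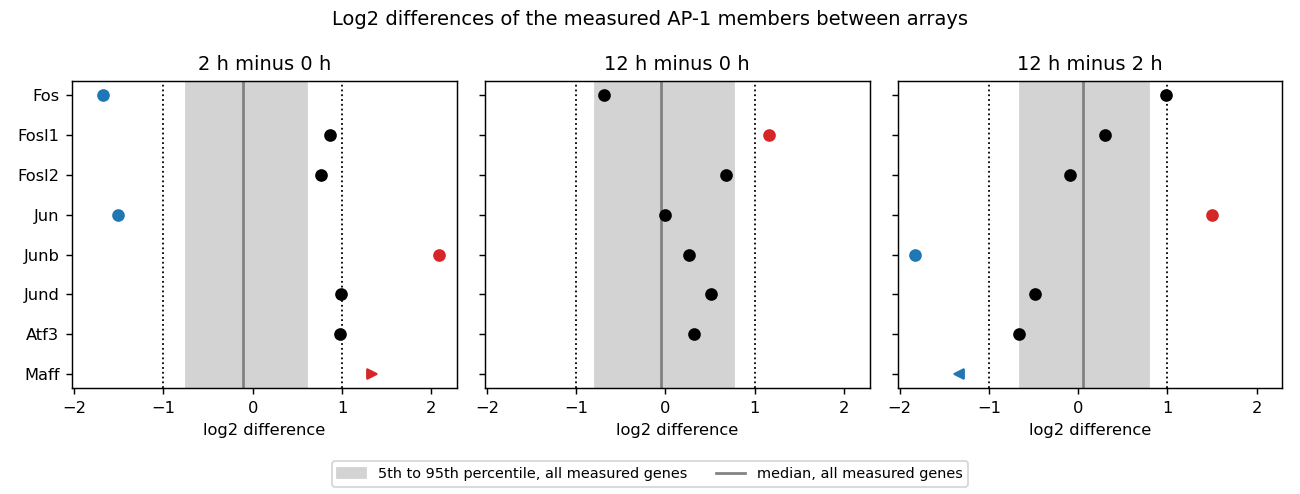
Log2 differences (x axis) of the measured AP-1 members (rows) for 2 h minus 0 h, 12 h minus 0 h and 12 h minus 2 h, with the 5th to 95th percentile of all measured genes in grey, their median as a grey line and 2-fold as dotted lines; red marks at least 2-fold higher, blue at least 2-fold lower, and triangles for Maff are bounds. At 2 h minus 0 h Fos (-1.68) and Jun (-1.51) lie to the left of the grey band. The other 6 members, Maff by a bound, lie to its right. At 12 h minus 0 h Fosl1 alone lies outside the band, with 1.16 by its brighter probe set.

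At 2 h against 0 h the median log2 difference of the 8 measured members was 0.92, and that of all 8422 measured genes was -0.10. The 7 members above the floor on both arrays lay outside the range from -0.75 to 0.61 between the 5th and 95th percentiles of all genes, and Maff has only a bound. Calls at 2-fold depended on how the arrays were scaled, because Jund, Atf3 and Fosl1 were close to the limit. With arrays set to one median, which moved the median of all genes to 0.03, the log2 differences were 1.14 for Jund, 1.13 for Atf3 and 1.01 for Fosl1, and 5 members were at least 2-fold higher. Among all 8423 genes then measured 225 were called higher and 73 lower, where the settings reported gave 176 and 142 of 8422. Fos and Jun stayed at least 2-fold lower with that scaling. Maff depended on the floor, with a log2 difference of 0.07 under a floor at the 60th percentile and 3.04 under one at the 20th.

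**Figure D3:**
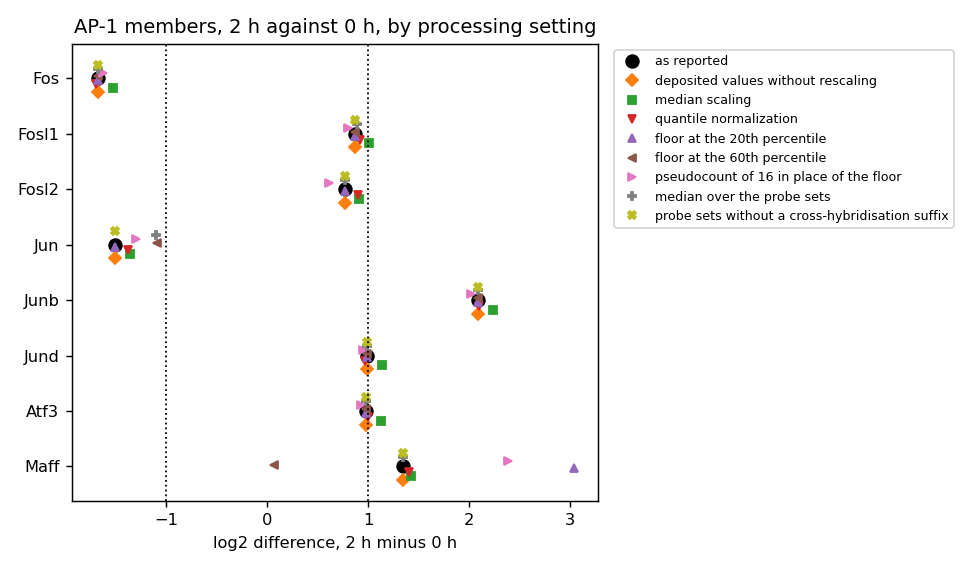
Log2 difference of each measured AP-1 member (rows) at 2 h minus 0 h under the settings reported and 8 alternatives of scaling, floor and probe set choice; dotted lines mark 2-fold. No member changes sign, Junb lies between 2.02 and 2.24, and Maff ranges from 0.07 to 3.04.

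At 12 h against 0 h, 7 members were measured. Fosl1 was the 1 called higher, by its brighter probe set alone, beside 3.01% of 8629 measured genes. None was called lower, beside 2.4%. The members' median was 0.32 and that of all genes -0.05. At 12 h against 2 h, 8 members were measured. Jun was called higher by its brighter probe set, beside 2.65% of 8467 genes, and Junb and Maff lower, beside 1.98%. Maff again entered through the 2 h array alone, so it could only be lower. The comparisons share arrays, so a low or high 2 h signal enters both the first and the last of them.

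The genes with the course most like each member's were taken as those nearest in the pair of log2 differences from 0 h, among genes above the floor on the same arrays; with 3 arrays this is a loose likeness. For Junb they were Dusp1, a MAP kinase phosphatase gene, with signals of 158, 705 and 179 at 0, 2 and 12 h, then Rcan1, a calcineurin inhibitor gene, and Sdc4, at distances of 0.11 to 0.15 on the log2 scale. Fos had Mdm4, Tlr4 and Rmi1 at 0.17 to 0.18, of which Tlr4, the LPS receptor gene, had signals of 251, 82.2 and 175. Jun had Tor4a at 0.09 and then Orc5 and Sphk2, both at 0.24. Fosl1 had Muc13, Opn3 and Vps37c at 0.06 to 0.10, by its brighter probe set. For Maff the nearest were AI504432, Hdgfl3 and Arsi among 109 candidates, and each of these differences is a bound.

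Among 25 measured genes of 30 other bZIP factors on the array, 2 were at least 2-fold higher at 2 h than at 0 h and none was lower, beside 2.09% and 1.69% of all genes. At 12 h 3 of 24 were higher and 2 lower, beside 3.01% and 2.4%. Jdp2, whose product pairs with Jun proteins and represses AP-1 sites, had signals of 101, 659 and 435 at 0, 2 and 12 h. It was 6.55-fold higher at 2 h and 4.33-fold higher at 12 h than at 0 h by this probe set. Its other probe set was under the floor on all 3 arrays, at 19.5, 29.7 and 33.2, and gives no fold. Cebpd, a C/EBP factor gene, was 5.78-fold higher at 2 h and 3.05-fold at 12 h, and its other probe set, under the floor at 0 h, was at least 3.73-fold and at least 4.17-fold higher. At 12 h the stress factor gene Ddit3 was 2.15-fold higher (signal 97.1 against 45.1), and Cebpa and Atf6 were 3.33-fold and 2.22-fold lower. Raising the floor to the 60th percentile left a log2 difference of 0.20 for Ddit3. Batf, an AP-1 partner of Jun in lymphocytes, was under the floor on all arrays. The median of this list was -0.01 at 2 h and -0.06 at 12 h.

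The genes of the route from MAP kinases to Fos and Jun were read at the mRNA level. Of 23 measured at 2 h against 0 h, only Mapkapk2, the kinase downstream of p38, was at least 2-fold higher, at 699 against 337. None was lower, and among all genes 2.09% were higher and 1.69% lower. Of 24 measured at 12 h against 0 h, only Mef2a was lower, at 248 against 596 at 0 h. None was higher, and among all genes 2.4% were lower and 3.01% higher. In a list of this size, such small counts cannot be told from those shares. Between 12 h and 2 h, 3 of 24 were lower at 12 h, beside 1.98% of all genes, and none was higher: Mef2a by 2.04-fold and, named after their values were seen, Elk3 by 2.32-fold and Map2k4 by at least 2.36-fold. The other probe sets of Elk3 were 1.99-fold and at least 1.89-fold lower at 12 h than at 2 h, and that of Map2k4 was 1.08-fold higher. The Map2k4 probe set that was counted lay under the floor at 12 h, so once measured here it could only be lower. Srf, whose product binds the serum response element of Fos, had signals of 148, 178 and 156 at 0, 2 and 12 h. The list's median was -0.12 at 2 h and -0.18 at 12 h. Kinase activity and phosphorylation are not measured by these arrays.

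A list of 28 genes commonly given as AP-1 targets had 18 measured at 2 h, of which 8 were higher and none lower, beside 2.09% and 1.69% of all genes. At 12 h 10 of 22 were higher and 1 lower, beside 3.01% and 2.4%. Mmp12 and Timp1, among those called higher, and Mmp3 and Il6 were above the floor on the 12 h array alone. Their direction was thus fixed once they were measured, and they count in the 12 h median. The list was chosen with earlier results of these data known. The medians were 0.43 and 0.94, beside -0.10 and -0.05 for all genes, and that at 2 h was 1.10 under a floor at the 60th percentile. Most genes of the list also answer to NF-kB, and how much of each difference goes through AP-1 was not tested. At 2 h Il1b was 46.8-fold, Tnf 18.2-fold, Ptgs2 9.90-fold and Ccl2 3.70-fold higher. The 0 h signal of Il1b, 42.1, was close to the floor, and its log2 difference of 5.55 was 4.54 under a floor at the 60th percentile. The other 4 genes called higher, named here after their values were seen, were Plaur at 3.97-fold, Ets2 at 3.14-fold, Bcl2l11 at 2.82-fold and Mt2 at 2.15-fold. Bcl2l11 had 5 probe sets, and the median over them was a log2 difference of 2.27. Mmp9, a matrix protease gene, had signals of 44.2, 55.4 and 288 at 0, 2 and 12 h, higher at 12 h alone. Plau, the urokinase gene, had 357, 277 and 40.4, and was the target called lower at 12 h, with a log2 difference from 0 h of -3.15, or -2.08 under a floor at the 60th percentile. Its other probe set had 231, 142 and 67.0, a log2 difference of -1.79 at 12 h.

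Of 8 genes described as restrained by ATF3 in mouse macrophages, 6 were measured at 2 h, when the Atf3 signal was highest. Tnf, Ccl4 and Cxcl10 were higher there, by 18.2-fold, 10.8-fold and 10.5-fold over 0 h. None was called lower, and among all genes 2.09% were higher and 1.69% lower. Ch25h was 1.63-fold lower at 2 h than at 0 h, with signals near the floor at 2 h and under it at 12 h. Ifnb1, under the floor at 0 h, was at least 1.55-fold higher at 2 h, and Nos2 was under it on all arrays. Cxcl10 had signals of 209, 2194 and 408 at 0, 2 and 12 h and was 1.96-fold higher at 12 h than at 0 h. Il6 had 2.80, 25.5 and 67.4, above the floor at 12 h alone, where it was at least 1.93-fold higher than at 0 h. Il12b had 39.1, 38.4 and 25.7, just above the floor at 0 h and 2 h and under it at 12 h. The list's median was 2.01 at 2 h and 0.95 at 12 h, the latter being the bound of Il6. Ifnb1 at both times and Il6 at 12 h were under the floor at 0 h, so once measured they could only be higher. Il12b and Ch25h, under it at 12 h, could only be lower there. All of them count in these medians. The floor moved both medians: one at the 20th percentile gave 1.24 at 2 h, and one at the 60th gave 3.44 at 2 h and 2.87 at 12 h.

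**Figure D4:**
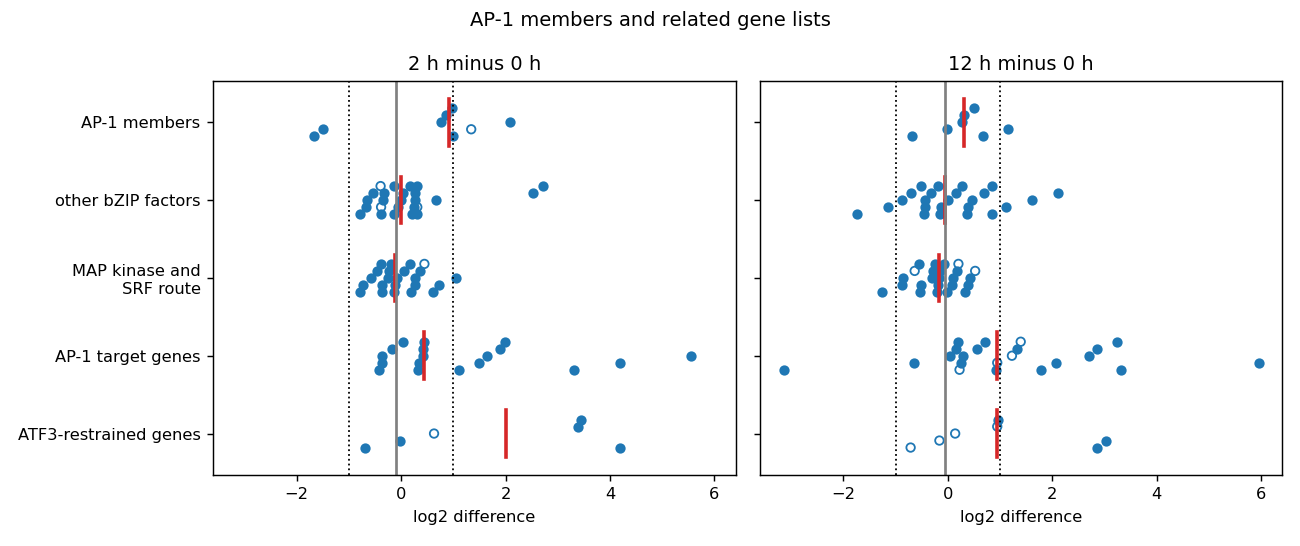
Log2 differences (x axis) of the AP-1 members and 4 related gene lists (rows) at 2 h minus 0 h and 12 h minus 0 h; filled points are genes above the floor on both arrays, open points are bounds, red bars are list medians, the grey line is the median of all measured genes and dotted lines mark 2-fold. The other bZIP factors and the MAP kinase route lie around 0 apart from single genes such as Jdp2 (2.71 at 2 h), and the target genes reach further to the right, up to 5.95 for Il1b at 12 h.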

How the data were processed

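Expression was measured on 1-colour arrays of the Affymetrix type, from 5 µg of total RNA per the labels' protocols. Linear intensity values per probe set were deposited, without detection calls. No label names the scanner software or the normalization. The 2% trimmed mean of the deposited values was 150.05 on each array, so the arrays had been scaled before deposit, and values are relative to that mean. The number of arrays limits the precision.

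Probe sets with 1 gene in the platform annotation were named through a RefSeq table of GRCm38.p6. Control probe sets were left out, arrays were rescaled to a common 2% trimmed mean (a change of at most 0.16%), and signals under the floor were set to it. The probe set with the highest mean floored log2 signal stood for a gene. The reading of folds was tested on simulated data made from the 0 h array. Folds were planted in bright genes alone, with noise smaller than the SD between probe sets, so readings near the floor were not tested. Members and lists were chosen with earlier results of these data known, and the motifs after the promoter sequences had been seen. The text names every member, up to 6 genes per list among those at least 2-fold from 0 h, Srf, Batf, Jdp2, Il6 and Il12b, and the 3 genes nearest each member that was at least 2-fold apart between any 2 arrays. Marker genes, Plaur, Ets2, Bcl2l11, Mt2, Mmp3, Mmp12, Timp1, Ch25h, Ifnb1, Nos2, Elk3 and Map2k4 are named outside this rule, after their values were seen. Alternatives covered scaling, floor, a pseudocount of 16, probe set choice and the fold. Python 3.11.15, numpy 2.4.6, pandas 2.3.3 and scipy 1.17.1 were used.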

Additional observations from a re-analysis of the deposited data

How the results depend on the processing

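With 1 array per time, none of the alternatives measures the variation between cultures. No paired analysis was possible because each time had 1 array and no result comes from a test. The numbers of members called depended on the settings. With a fold of 1.5, 6 members were higher and 2 lower at 2 h than at 0 h, where 472 and 812 of all 8422 genes were. At 12 h against 0 h 2 were higher and 1 lower, where 718 and 893 of 8629 genes were. At 12 h against 2 h 2 were higher and 3 lower, where 861 and 546 of 8467 genes were. With a fold of 3, 1 was higher and 1 lower at 2 h than at 0 h, where 87 and 13 of 8422 genes were. At 12 h against 0 h 0 were higher and 0 lower, where 101 and 27 of 8629 genes were. At 12 h against 2 h 0 were higher and 1 lower, where 55 and 48 of 8467 genes were. Median scaling gave 5 higher at 2 h than at 0 h, beside 225 of 8423 genes. The floor at the 60th percentile, which takes Maff out of the calls, gave 1 higher at 2 h than at 0 h, beside 131 of 5886 genes. It gave 1 lower at 12 h than at 2 h, beside 111 of 5854 genes. With the median over probe sets, 0 were higher at 12 h than at 0 h, beside 235 of 8630 genes. No called difference of a single member, or of another named gene followed against 0 h, changed sign under any alternative. Mmp12 and Timp1 were not followed. Of 181 member values, 169 moved by less than the SD between probe sets. The 12 that moved further belonged to Maff, Jun and Fosl1. Many of the values could hardly move. Members read by 1 probe set have the same value under the alternatives of probe set choice. Leaving out the rescaling changed signals by at most 0.16%, and Fos, Junb, Jund and Atf3 were above every floor used. The count is thus no measure of how firm the values are. The alternatives for other named genes and for list medians were chosen after seeing the data, and 457 of 483 such values moved by less than that SD. Settings that cannot change a value are counted there too. Fosb, under the floor on every array, has no value under the settings reported.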
